A study of Oryza sativa Indica Group with 64 samples.

Results

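Leaves of the rice variety IR64 (Oryza sativa Indica Group) that were taken 3 h after dawn following warm nights were compared with control leaves of the same hour. The members are the 8 libraries labelled for this hour, 4 of warm night temperature (WNT) and 4 of control, out of 64 libraries in the series. The plants were field grown on a plot in the dry season, and WNT plants were warmed with an infrared heater at night. All groups share the variety, the field setting and poly(A) RNA from leaf tissue, and the labels give neither the night temperature reached under the heater nor the age of the leaves. The other 56 libraries hold the same 2 treatments at dawn, 7 h, 10 h, dusk, 14 h, 17 h and 23 h, with 4 replicates in each of the 16 groups. Nothing in the labels says that replicates came from separate plots. The p-values thus measure the spread between samples, pooled over all 64 libraries and not taken from those of 3 h alone. A difference between plots cannot be told apart from the treatment.

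In plants a large part of the leaf transcriptome cycles over the day under the circadian clock, light and sugar supply. The hours after dawn are a time of fast change, when night transcripts decline and those of photosynthesis and daytime metabolism build up. Night temperature is one of the cues that set the clock, and warm nights are known for lower yield and poorer grain in rice. Leaves taken at 3 h were in daylight, some hours after the heated night. Genes are given in the files by identifiers that begin with MH, which the files do not pair with names. None of them (0 of 57174) matched the gene table at hand, so functions, sequences and cell type markers are not described, and the leaf label could not be checked against its markers. In bulk leaves, fewer cells of a type and less RNA per cell cannot be told apart.

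Counts on genes lay between 2941158 and 36597029 in the 8 libraries, and levels are given as CPM, the share of a library's counts that fell on a gene, brought to a common library size after TMM scaling. Control replicate 1 was the deepest library and WNT replicate 2 the shallowest, so low genes are least certain in WNT replicate 2. Control replicate 4 stood apart from its group, with 22.02% of reads not aligned against 11.7% to 12.6% in the other 3, and 6.37% of its counts on its 10 most abundant genes against 11.1% to 11.6%. WNT replicate 4 had the lowest mean correlation with its own group, 0.922 in log2 CPM, against 0.936 to 0.942 for the other WNT libraries. Control replicate 4 was low in the same way, with 0.924 against 0.953 to 0.962 for the other control libraries. WNT replicates 2 and 3 correlated slightly more with the control libraries (0.946 each) than with their own group (0.936 and 0.940). All pairs of replicates differed by more than counting noise (chi-square per degree of freedom between 6.59 and 119.6), so all 8 were counted as separate samples. Results are therefore given with the support of each library.

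Genes count as called where edgeR's quasi-likelihood F test gave an adjusted p-value under 0.05, with the adjustment of Benjamini and Hochberg made over all 20525 genes tested. At 3 h after dawn 1403 genes were called, 6.84% of those tested. Of these, 839 (4.09% of tested genes) were higher in WNT and 564 (2.75%) were lower. Without WNT replicate 4 the same test called 200 genes, 43.0% of them higher (86) and the rest lower, and 186 of them were among the 1403. No other single library moved the total by more than 1.5 times, but the higher calls fell to 552 without control replicate 2 and the lower calls to 359 without control replicate 3. Fitted from the 8 libraries of 3 h alone, without the spread of the other time points, 1 gene was called, while 2359 had an unadjusted p-value under 0.05.

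**Figure D1:**
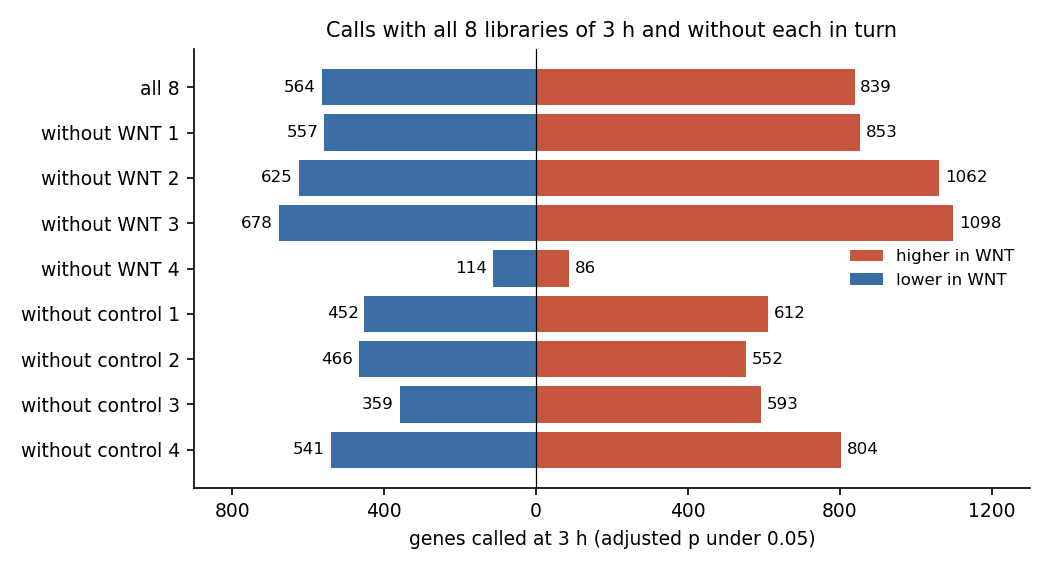
Number of genes called at 3 h (x axis, adjusted p under 0.05) with all 8 libraries and without each library in turn (y axis), higher in WNT to the right and lower to the left. The bars for the fit without WNT replicate 4 hold 200 genes, 86 of them higher, against 839 higher and 564 lower with all 8 libraries.

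The genes higher in WNT had a median log2 fold change of 1.22, with quartiles of 0.83 and 1.80. The change was at least 1 on the log2 scale in 519 of them, at least 2 in 175 and at least 3 in 58. Their median level was 22.2 CPM in control leaves and 51.9 CPM in WNT leaves. The genes lower in WNT had a median log2 fold change of −1.12, and the size of the change was at least 1 in 324 of them, at least 2 in 80 and at least 3 in 16. Their median level was 23.1 CPM in control and 11.3 CPM in WNT. Over all tested genes the median log2 fold change was −0.05, and 14.7% changed by at least 1 in either direction. Most called genes thus changed by at least a factor that is seen in a minority of all genes, which the call itself favours.

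Calls depended on the level of the gene. Among genes with a mean of 50 CPM or more over the 8 libraries, 7.07% of 4837 were called higher and 2.87% lower. Between 5 and 50 CPM the shares were 4.62% higher and 3.51% lower of 8994 genes, and under 5 CPM they were 1.21% and 1.63% of 6694. Abundant genes were thus called more often as higher than as lower, and the order was the other way round under 5 CPM. The mean includes the WNT libraries, so a rise in WNT can itself move a gene into a higher class. A fall can move it into a lower class, which favours this order. In the lowest class the median log2 fold change of the called genes was 2.35 for those higher and −1.78 for those lower, so small changes of low genes were not detectable at this depth.

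A called change is most even over the libraries where all 4 WNT libraries lie beyond all 4 control libraries. This held in 35.6% of the 839 genes called higher and in 361 of the 564 called lower (64.01%). Over all tested genes the groups did not overlap in 2.9% (higher) and 3.81% (lower). Of the genes called higher, 246 (29.3%) had 3 WNT libraries above all controls, 29.6% had 2 and 46 had only 1. Of the genes called lower, 23.8% had 3 WNT libraries below all controls, 42 had 2, 16 had 1 and 11 had none. Lower calls were thus mostly carried by all 4 WNT libraries, and higher calls were more often carried by some of them. The genes were called on these same 8 libraries, so the shares describe the calls and are not further support for them. The difference between the 2 directions was not tested.

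The libraries behind the higher calls were unequal. WNT replicate 4 was the highest WNT library in 718 of the 839 genes (85.6%), against 27.01% of all tested genes. Its median distance from the mean of the controls over these genes was 2.07 on the log2 scale, against 0.85 in WNT replicate 1, 0.42 in replicate 2 and 0.39 in replicate 3. WNT replicates 2 and 3 thus lay much nearer to control in these genes than WNT replicate 4 did. WNT replicate 4 was above all 4 controls in 828 of the 839 genes, WNT replicate 1 in 730, replicate 2 in 460 and replicate 3 in 458. Over all tested genes these shares were 24.3%, 19.7%, 17.3% and 19.1%. In 46.0% of the 839 genes WNT replicate 4 exceeded each of the other WNT libraries by at least 1 on the log2 scale, against 6.00% of all tested genes. Without it the median log2 fold change of the 839 genes was 0.62 in place of 1.22, and 808 (96.3%) kept a positive sign. Over all tested genes 86.1% kept their sign, since both fits share 7 of the 8 libraries.

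The libraries behind the lower calls were closer to each other. Their median distances from the control mean were −0.92, −0.85, −0.95 and −1.41 for WNT replicates 1 to 4. WNT replicate 4 was again the most distant and the lowest WNT library in 327 of the 564 genes (58.0%), against 31.4% of all tested genes. The other 3 libraries, however, lay at similar distances, below all controls in 457 to 490 of the 564 genes. Without WNT replicate 4 the median log2 fold change was −0.99 in place of −1.12, and all 564 kept a negative sign. In that fit 561 of the 564 had an unadjusted p-value under 0.05, as did 516 of the 839 genes called higher, against 11.8% of all tested genes. The genes had been called on these same 7 libraries and WNT replicate 4, so these counts describe the calls.

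**Figure D2:**
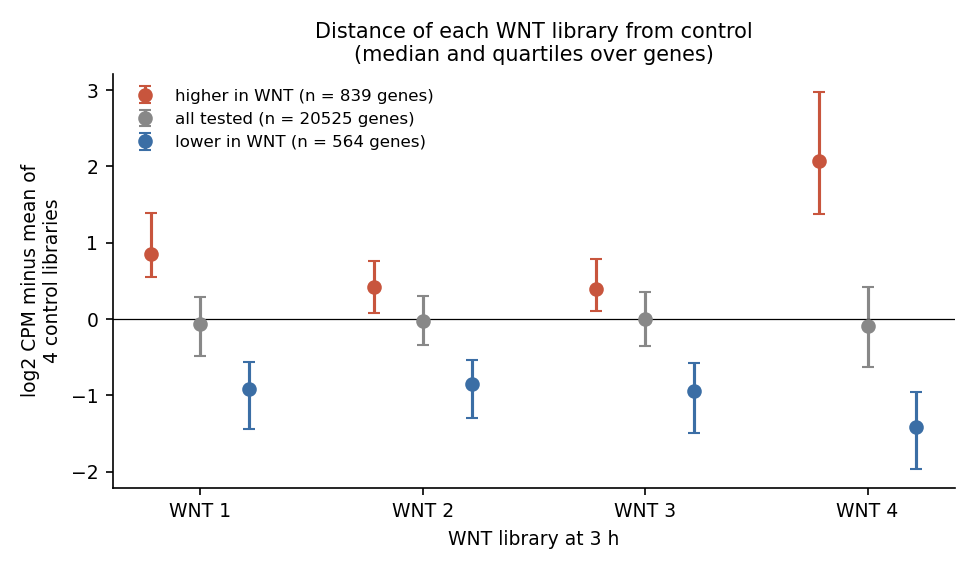
Distance of each WNT library from the mean of the 4 control libraries at 3 h (y axis, log2 CPM), as the median and quartiles over the genes called higher, the genes called lower and all genes tested. WNT replicate 4 lies at a median of 2.07 for the genes called higher and the other 3 between 0.39 and 0.85, while the medians for the genes called lower lie between −1.41 and −0.85.

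A call that does not hang on any one library is one that passed in all 8 fits with 1 library left out. This was so for 73 of the 839 genes called higher (8.70%) and 94 of the 564 called lower (16.7%). The 73 had a median log2 fold change of 1.42, with sizes from 0.52 to 6.20, and the groups did not overlap in 51 of them. The 94 had a median of −1.57, with sizes from 0.64 to 4.77, and the groups did not overlap in 85. The lower set is thus the larger one here, although the higher calls outnumbered the lower ones among all 1403.

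The calls were also read in libraries left out of the fit, an analysis added after the data were seen. For each of the 16 pairs of 1 WNT and 1 control library, genes were called from the other libraries and the difference within the left-out pair was then read. Genes called higher were higher in the left-out pair in 50.7% to 96.3% of cases, with a median over pairs of 70.0%, against 43.3% to 51.8% of all tested genes. Genes called lower were lower there in 53.8% to 93.4% of cases, with a median of 78.3%, against 48.2% to 56.5% of all tested genes. For the higher genes the share was above that of all tested genes in all 16 pairs, by the smallest margin for WNT replicate 2 and control replicate 4 (50.7% against 46.3%). For the lower genes it was above in 15 of the 16 pairs, and the exception was WNT replicate 1 with control replicate 4 (53.8% against 55.2%).

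The left-out library mattered here too. With WNT replicate 4 left out, 49 to 100 genes were called higher, and 72.0% to 96.3% of them were higher in WNT replicate 4 than in the left-out control. In the same 4 pairs 61 to 138 genes were called lower, and 77.5% to 93.4% of them were lower in WNT replicate 4. With WNT replicate 2 or 3 left out, 837 to 1025 genes were called higher. Only 50.7% to 71.5% of them were higher in the left-out pair (median 62.6%). Of the genes called lower in these 8 pairs, 63.5% to 85.4% were lower there. With WNT replicate 1 left out, 602 to 875 genes were called higher. Of them 68.6% to 91.7% were higher in the left-out pair (median 88.4%). The median share for the lower genes was 81.9% in those 4 pairs. Most genes that the other 3 WNT libraries supported thus went the same way in WNT replicate 4. By the medians, higher calls made with WNT replicate 4 in the fit were seen more often in WNT replicate 1 than in replicates 2 and 3. The pairs share libraries, and the difference between them was not tested.

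In each direction 2 identifiers were named by a rule, from the genes with groups that did not overlap and a mean of at least 5 CPM (272 higher and 291 lower): the one with the largest change and the one with the lowest p-value. The rule used the libraries of 3 h. The p-values of the named genes at 3 h, and of 3 h against the other time points, thus describe the choice. They are not further support for it. MH04t0376900 had the largest change among these 272 higher genes. Its level at 3 h was 22.9, 3.97, 2.52 and 57.7 CPM in WNT replicates 1 to 4, and 0.97, 0.83, 1.37 and 0.93 CPM in control replicates 1 to 4. All WNT libraries lay above all controls, with WNT replicates 1 and 4 well above replicates 2 and 3. The log2 fold change was 4.44 (SE 0.67, adjusted p = 5.94e-05 in edgeR), and without any 1 library it stayed between 3.25 and 4.82, with adjusted p-values up to 0.00416. With sample quality weights in limma voom it was 2.88 (adjusted p = 5.92e-05). The control values rest on few reads, 6 to 26 counts a library.

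The same gene was already higher at dawn, where WNT libraries held 2.73 to 3.73 CPM and controls 0 to 0.70 CPM. The log2 fold change at dawn was 3.11 (SE 0.72, adjusted p = 0.0333 in edgeR). At the 6 other time points it was not called, with log2 fold changes from −0.99 at 14 h to 0.93 at dusk. In control leaves its highest mean was 2.91 ± 1.29 CPM (SD, n = 4) at 7 h and its lowest 0.38 ± 0.31 CPM at dawn. The mean of 21.8 ± 25.7 CPM in WNT leaves at 3 h was thus above every control mean of the day, with an SD larger than the mean. Its difference at 3 h exceeded the mean difference of the other time points by 3.74 on the log2 scale (adjusted p = 0.000671 in edgeR).

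MH07t0091900 had the lowest p-value of the 272. Its level was 69.8, 67.9, 31.8 and 67.8 CPM in WNT replicates 1 to 4 and 21.8, 17.1, 24.9 and 18.4 CPM in the controls. WNT replicates 1, 2 and 4 sat close together and replicate 3 lay between them and the controls. The log2 fold change was 1.53 (SE 0.20, adjusted p = 9.42e-06 in edgeR), and the value lay between 1.43 and 1.73 without any 1 library. In control leaves this gene was high at 17 h (31.1 ± 6.37 CPM, SD, n = 4) and low at 7 h (11.7 ± 2.87 CPM). It was called at none of the other 7 time points, where its log2 fold change ran from −0.53 at 17 h to 0.74 at 7 h. The difference at 3 h exceeded their mean by 1.68 (adjusted p = 3.67e-06 in edgeR).

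MH05t0326000 had the largest change among the 291 lower genes of the rule. It held 4.52, 11.5, 3.15 and 0.42 CPM in WNT replicates 1 to 4 and 27.8, 21.9, 141.3 and 136.1 CPM in the controls. The groups did not overlap, as the rule required, although the controls were split into a low and a high pair. The log2 fold change was −4.26 (SE 0.87, adjusted p = 0.00114 in edgeR), between −5.07 and −3.78 without any 1 library. With sample quality weights in limma voom it was −3.04 and no longer passed (adjusted p = 0.136).

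This gene had a steep diel pattern and differed over the day in control. Its control level went from a mean of 37.7 CPM at 7 h to 333.8 CPM at 10 h and 1000.5 CPM at dusk, and was down to 23.0 CPM at 23 h. At dawn it stood at 115.5 ± 82.1 CPM in control and 17.4 ± 14.6 CPM in WNT (SD, n = 4), a log2 difference of −2.74 that did not pass (adjusted p = 0.0732 in edgeR). At dusk the means were 1000.5 CPM in control and 526.3 CPM in WNT, a log2 difference of −0.92 that did not pass either. The mean of 4.90 ± 4.73 CPM in WNT leaves at 3 h was below every control mean of the day. The difference at 3 h lay 3.58 below the mean of the other 7 time points (log2 difference −3.58, adjusted p = 0.0118 in edgeR).

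MH05t0027800 had the lowest p-value of the 291. It held 71.7, 94.5, 92.2 and 115.9 CPM in WNT replicates 1 to 4 and 254.9, 259.1, 277.6 and 200.7 CPM in the controls. Here WNT replicate 4 was the library nearest to control. The log2 fold change was −1.40 (SE 0.21, adjusted p = 5.94e-05 in edgeR), between −1.54 and −1.30 without any 1 library. In control leaves its mean was highest at dawn (623.7 ± 134.4 CPM, SD, n = 4) and lowest at 7 h (208.8 ± 67.0 CPM), and WNT leaves at 3 h held 93.6 ± 18.1 CPM, well below that lowest control mean. At the 7 other time points its log2 fold change was negative throughout, from −0.44 at dawn to −0.12 at 14 h, and the mean of the 7 was −0.30 (adjusted p = 0.00646 in edgeR).

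**Figure D3:**
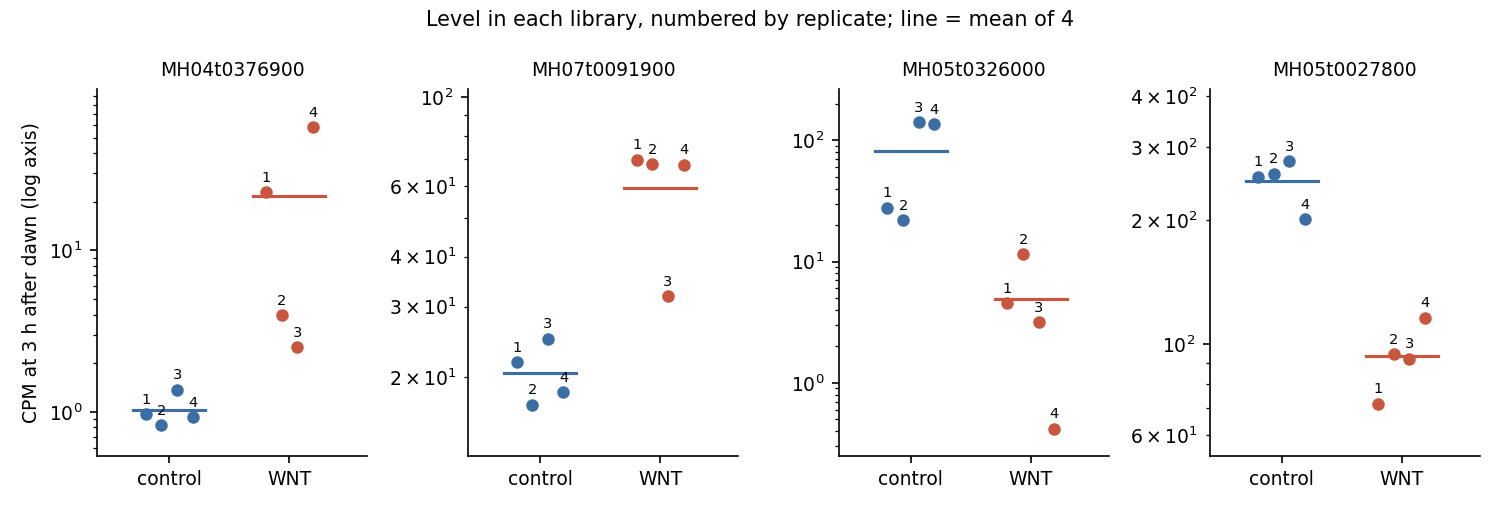
Level of the 4 named genes at 3 h after dawn (y axis, CPM on a log axis) in each control and WNT library, numbered by replicate, with the mean of 4 as a line. By the rule that chose these genes, the 4 WNT libraries lie on one side of the 4 controls in every panel. WNT replicate 4 is the highest for MH04t0376900 at 57.7 CPM and the lowest for MH05t0326000 at 0.42 CPM.

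The next genes by size of change come from the same 272 and 291, so their groups do not overlap by the rule. The gene with the second largest change among the 272 held 32.3, 10.7, 26.6 and 255.1 CPM in WNT replicates 1 to 4 and 3.45, 8.54, 1.14 and 4.63 CPM in the controls, a log2 fold change of 4.18 (SE 1.06, adjusted p = 0.00903 in edgeR). WNT replicate 4 was far above the other 3 there. The gene with the second largest change among the 291 held 16.5, 22.2, 16.1 and 26.8 CPM in WNT and 289.8, 231.7, 327.0 and 79.5 CPM in control, a log2 fold change of −3.50 (SE 0.59, adjusted p = 0.000145 in edgeR). Its 4 WNT libraries were close together, and control replicate 4 was the nearest control.

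The following ranks are within the same 272 higher and 291 lower genes, which leave out larger changes of low or overlapping genes. Among the 10 higher genes with the lowest p-values, log2 fold changes ran from 1.00 to 4.44 and WNT replicate 4 was the highest WNT library in 8. Among the 10 with the largest changes it was the highest in all 10, with log2 fold changes from 2.84 to 4.44. In control leaves 9 of these 10 had their highest level at 7 h, against 21.8% of all tested genes. Between the 7 time points other than 3 h, 7 of the 10 differed in control, against 66.6% of all tested genes. The 10 lower genes with the lowest p-values ran from −3.50 to −1.22, and 7 of them had their highest control level at dawn, against 16.2%. All 10 also had a negative mean difference over the 7 other time points, and 5 were called lower in it. Over all tested genes these shares were 48.1% and 7.15%. Within these lists of 10, the largest rises were thus mostly in genes with their highest control mean at 7 h. The falls with the lowest p-values were mostly in genes with theirs at dawn.

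Of the genes called lower, 4 had no count in any of the 4 WNT libraries. Against a floor of 3 counts over the WNT group, on library sizes before TMM scaling, they were at least 2.25-fold to at least 10.2-fold lower than in control. Their control reads were few, between 17 and 77 in all, and 3 of the 4 lacked a count in 1 control library. Setting these genes to their bounds left the median of the genes called lower at −1.12.

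**Figure D4:**
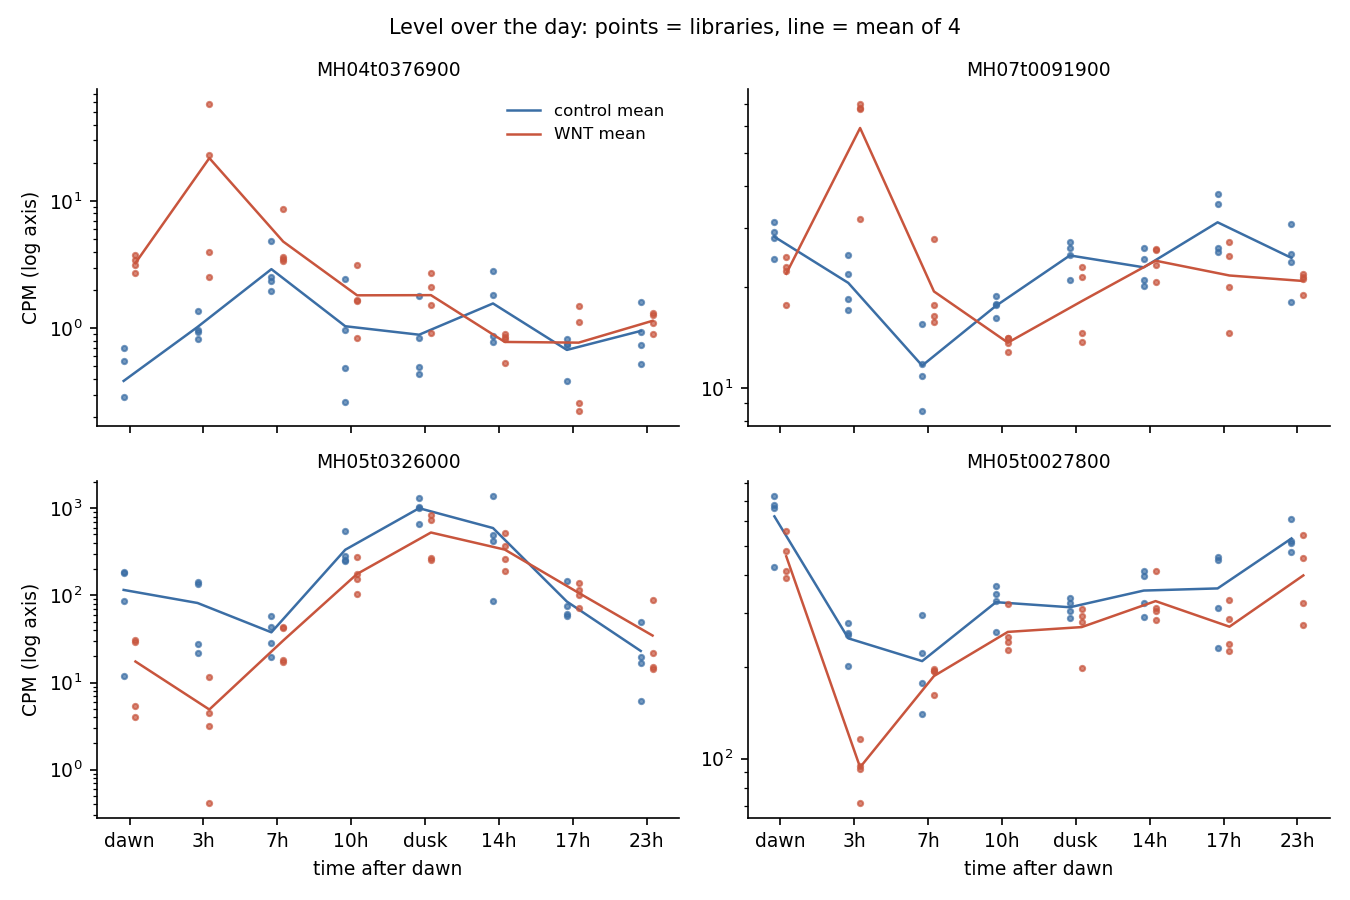
Level of the 4 named genes over the day (y axis, CPM on a log axis; x axis, time after dawn) in control and WNT leaves, with libraries as points and the mean of 4 as a line. One control library of MH04t0376900 at dawn is at 0 and is not drawn, and the WNT means at 3 h, from 4.90 CPM for MH05t0326000 to 93.6 CPM for MH05t0027800, lie outside the range of the control means in all 4 panels.

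The 7 other time points measure the same treatment in 56 other libraries. These enter the fit at 3 h through the filter, the scaling and the shared spread, but not through the fold change itself. Averaged over them, 8.97% of tested genes were called higher in WNT and 7.15% lower. Of the 564 genes called lower at 3 h, 139 (24.6%) were also called lower in this average and 1 was called higher. Of the 839 genes called higher at 3 h, 79 (9.42%) were also called higher and 12 were called lower. The share for the lower genes was above the background of 7.15%, and the share for the higher genes was near the background of 8.97%.

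Direction alone gave a similar picture. Of the genes called lower at 3 h, 84.0% had a negative mean difference over the other 7 time points, against 48.1% of all tested genes, and the median of that difference was −0.16. Of the genes called higher, 57.8% had a positive mean difference, against 51.9% of all tested genes, with a median of 0.04. Both shares rest on the sign of a mean over time points, and both medians were small beside the changes at 3 h. With the 200 genes called without WNT replicate 4, the shares were 91.2% of the lower genes and 65.1% of the 86 higher genes.

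By time point, the higher genes leaned to WNT most at dawn, 3 h earlier. At dawn 74.4% of them were higher in WNT, against 50.3% of all tested genes, with a median log2 difference of 0.20. The share was 57.2% at 7 h, 54.5% at 10 h and 61.4% at dusk, against 49.1% to 51.2% of all tested genes. At 14 h it was 36.5%, below the 47.5% of all tested genes. The genes called lower were lower in WNT in 83.2% of cases at dawn, 76.1% at 7 h, 82.3% at 10 h and 80.1% at dusk. Over all tested genes these shares were 48.8% to 50.9%. At 14 h, 17 h and 23 h the share of the lower genes was between 60.8% and 62.8%, against 44.8% to 52.4% of all tested genes. The median log2 difference of the lower genes was between −0.32 and −0.19 at dawn, 7 h, 10 h and dusk. It was between −0.11 and −0.07 at the 3 later time points.

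Few genes were called at any single time point other than 3 h. At 7 h, 10 h and dusk no tested gene was called. At 14 h 1 was called higher, at 23 h 2 were called higher and at 17 h 2 were called lower. At dawn 0.122% of tested genes were called higher and 0.283% lower, and these included 7 of the 839 genes and 9 of the 564. At 17 h 0.185% of tested genes were called higher (38), and these included 1 of the 839 and, against their direction at 3 h, 3 of the 564. The difference had the same sign as at 3 h at all 7 other time points in 101 of the 564 lower genes (17.9%) and in 70 of the 839 higher genes (8.34%), against 9.54% of all tested genes.

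Whether the difference at 3 h departed from the mean of the other time points was tested in the same model. It was more positive at 3 h in 3.13% of tested genes (643) and more negative in 1.13% (231). Of the genes called higher 550 (65.6%) passed this test, and of those called lower 204 (36.2%). The 3 h libraries enter both tests, so these shares describe the calls and are not further support for them. The number of genes that passed was 46 without WNT replicate 4, 1488 without WNT replicate 3 and 573 without control replicate 2, against 874 with all libraries.

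The normal diel pattern was read from control leaves at the 7 time points other than 3 h, whose libraries share the model's spread with the comparison but none of its group means. Between these time points 66.6% of tested genes differed in control leaves (adjusted p under 0.05 in edgeR). The share was 70.0% (587) of the genes called higher and 86.7% (489) of the genes called lower. The median range between the highest and the lowest control mean was 1.63 on the log2 scale for the lower genes, against 1.28 for the higher and 1.26 for all tested genes. Genes with a diel pattern were thus well represented among the lower genes, and the higher genes were near the background. That background was not matched for level. The median control level at 3 h was 13.9 CPM over all tested genes, against 22.2 CPM for the higher and 23.1 CPM for the lower genes. The difference in diel shares was not tested.

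The 2 sets were timed in opposite ways. In control leaves 39.6% of the higher genes had their highest mean at 7 h, against 21.8% of all tested genes and 5.50% of the lower genes. Of the lower genes 27.8% were highest at dawn, 20.9% at 10 h and 19.5% at dusk, against 16.2%, 15.5% and 9.82% of all tested genes. The share highest at dawn was 18.2% with library size only, and in WNT leaves it was 18.6%, against 22.3% of all tested genes there. The lowest mean of the lower genes was at 7 h in 37.2%, against 18.7% of all tested genes. The lowest mean of the higher genes was most often at dusk, in 22.4% against 13.4%. Genes that peak at 7 h thus took a larger share of the higher set than of all genes, and genes at their minimum then a larger share of the lower set, a difference that was not tested.

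**Figure D5:**
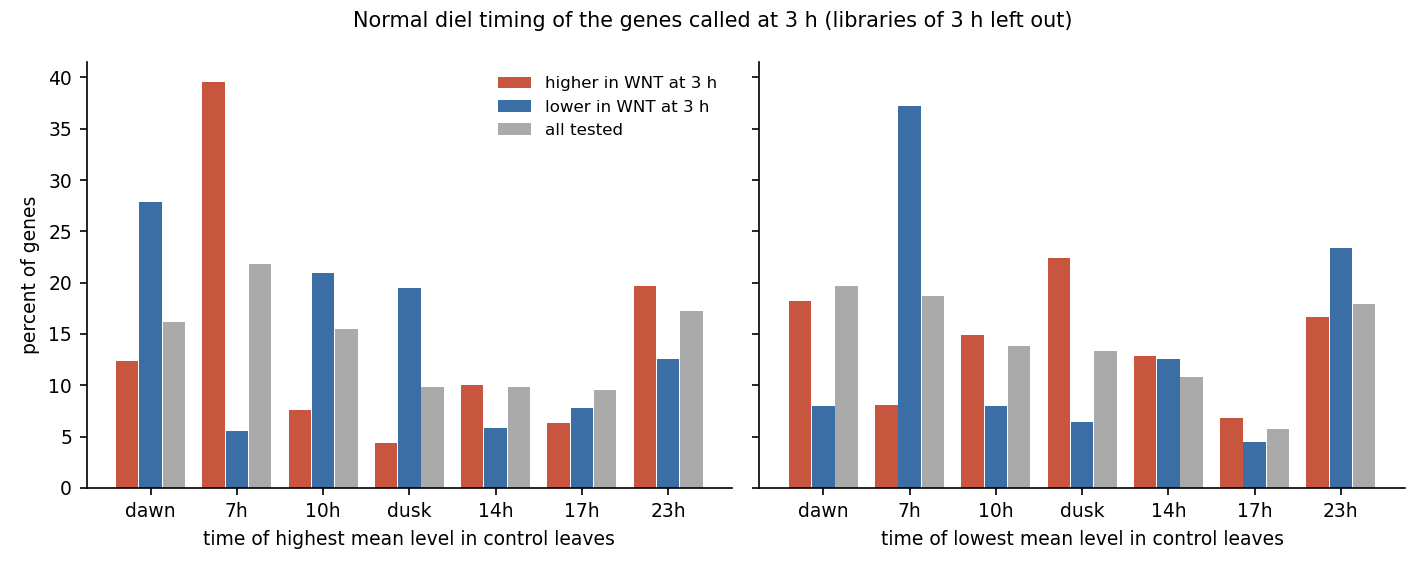
Percent of genes (y axis) by the time of their highest (left) and lowest (right) mean level in control leaves at the 7 time points other than 3 h, for genes called higher in WNT at 3 h, genes called lower and all genes tested. At 7 h, 39.6% of the higher genes were at their highest and 37.2% of the lower genes at their lowest, against 21.8% and 18.7% of all genes.

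The called share can also be given by timing class. Of the 4479 genes highest at 7 h in control, 7.41% were called higher in WNT at 3 h and 0.69% lower. Of the 2015 genes highest at dusk, 1.84% were called higher and 5.46% lower. Of the 3327 genes highest at dawn, 3.13% were called higher and 4.72% lower. Most genes of each class were not called, and the difference between the classes was not tested. Genes that did not pass the diel test in control were called higher in 3.67% and lower in 1.09% of cases.

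The size of the change at 3 h also went past the control range. The WNT mean at 3 h was above the highest control mean of the other 7 time points in 77.5% of the genes called higher, against 17.1% of all tested genes. It was below the lowest such mean in 67.7% of the genes called lower, against 19.6%. The control mean at 3 h lay above that range in 11.8% of the higher genes and below it in 10.5%. For the lower genes these shares were 10.6% and 7.98%, and over all tested genes 11.8% and 11.1%. Control means at 3 h thus left the range about as often as in all tested genes or less often. The genes were called on the WNT and the control libraries of 3 h, so all these shares describe the calls.

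Over the day the median profile of the higher genes in control, relative to the gene's own mean, was 0.00 at dawn, 0.10 at 3 h and 0.29 at 7 h on the log2 scale. In WNT leaves it was 0.18 at dawn, 1.02 at 3 h and 0.33 at 7 h. For the lower genes the control medians were 0.14, −0.09 and −0.24 at dawn, 3 h and 7 h, and the WNT medians −0.21, −1.06 and −0.47. The WNT medians at 3 h were thus several times as far from the mean as the control medians at 7 h, and both sets lay nearer to control again at 7 h. The genes were called on the difference at 3 h, which favours a larger distance there than at 7 h, so these medians describe the calls. In control leaves 61.7% of the higher genes had a higher mean at 7 h than at dawn, and 33.3% of the lower genes, against 51.6% of all tested genes.

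The timing was also read with fewer calls. Among the 86 higher genes called without WNT replicate 4, 39.5% were highest at 7 h in control and 37.2% were lowest at dusk. Among the lower genes called without it, 28.1% were highest at dawn, and their lowest level was most often at 23 h (35.1%) and next at 7 h (33.3%), while 91.2% differed over the day. In WNT leaves the higher genes were highest at dawn in 32.1% and at 7 h in 35.9%, when 3 h was left out. In control leaves the share at dawn was 12.4%, and over all tested genes it was 22.3% in WNT and 16.2% in control.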

How the data were processed

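Leaf RNA of 64 libraries was used, with treatment, time point and replicate taken from the labels. Raw gene counts as deposited by the authors, whole and not normalized, were read for 57174 identifiers in each library, and the closing lines for uncounted reads were left out of library sizes. HISAT2 (version 2) and HTSeq 0.6.0 are named in the submitters' processing notes. The genome build, the annotation and the strand setting of the counting are not given in the sources used here, so overlapping, antisense and near-identical genes are uncertain. Reads on genes made up 66.0% to 75.2% of the reads of the 8 libraries of 3 h, and 7.56% to 10.1% of reads fell on no gene.

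Two-sided tests were made with edgeR 4.0.16 under R 4.3.3, in one model with a mean for each of 16 groups: filterByExpr (count minimum 10, total minimum 15), TMM, robust glmQLFit and glmQLFTest, and adjustment by Benjamini and Hochberg within each contrast. The common biological coefficient of variation was 0.332 over all libraries and 0.385 at 3 h. Log2 CPM used a prior count of 2. A fold against 0 counts was bounded with 3 counts over the WNT group, and floors cover counting error only.

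The alternatives were other scalings (RLE, library size only), 2 filters, other tests (DESeq2 1.42.0, the likelihood ratio test, voom of limma 3.58.1 with sample quality weights), a replicate block, fits on 8 and on 32 libraries, stricter thresholds, and leaving out each library. Leaving out pairs was added after the data were seen. The fit was also run on simulated counts, drawn with the spread estimated over all 64 libraries and with no library made to stand apart. That run cannot show how the calls depend on WNT replicate 4. The members, the sets of genes and the rule for named genes were chosen with earlier results of these data known. Summaries and plots used Python 3.11.15 and matplotlib 3.10.9.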

Additional observations from a re-analysis of the deposited data

Results flagged for a closer look

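Control replicate 1 at 3 h was far deeper than its group, holding 36597029 counts where the other control libraries held 5777296 to 10072802. Control replicate 4 had 22.02% of reads not aligned against 11.7% to 12.6%, and 6.37% of counts on its 10 most abundant genes against 11.1% to 11.6%. For MH07t0091900, WNT replicate 3 held 31.8 CPM against 67.8 to 69.8 CPM in the other WNT libraries. These 4 values came from 20 checks of groups of 4 libraries, in which chance gives about 1, and their cause was not tested.

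The difference between WNT and control at 3 h departed from the mean of the other 7 time points in 874 genes (edgeR, adjusted p under 0.05). The named genes were among them, but they had been chosen for their difference at 3 h, which favours passing this test. The log2 difference at 3 h minus that mean was 3.74 for MH04t0376900 (adjusted p = 0.000671), 1.68 for MH07t0091900 (adjusted p = 3.67e-06), −3.58 for MH05t0326000 (adjusted p = 0.0118) and −1.11 for MH05t0027800 (adjusted p = 0.00175).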

How the results depend on the processing

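The number of genes called at 3 h (1403) was between 952 and 1776 with RLE factors, library size only, either other filter, DESeq2, the likelihood ratio test, voom, the replicate block, 32 libraries or 7 of the 8 libraries left out in turn. It moved with the 8 libraries of 3 h alone (edgeR, 1 gene, 0 higher and 1 lower, with 2359 at an unadjusted p-value under 0.05), at an adjusted p under 0.01 (585, of which 400 higher and 185 lower) and with a change of at least 1 on the log2 scale (843, of which 519 and 324). Leaving out 1 library gave 200 to 1776 genes, and leaving out 1 library or 1 pair gave 49 to 1098 higher and 61 to 678 lower. In DESeq2 1717 were called. With voom's sample quality weights 1117 were called, 651 of them among the 1403, and the lowest weights went to WNT replicate 4 (0.23) and control replicate 4 (0.30). The cause of these shifts was not tested, except that a stricter threshold calls fewer genes by construction.

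The deviations of same-numbered libraries of 3 h from their groups had correlations of 0.17, −0.09, −0.32 and −0.19. The largest correlation was 0.35, for WNT replicate 3 with control replicate 4. The labels do not say whether equal numbers share a plot or a sampling round, and these values cannot settle it. The main test did not pair them. The replicate block gave 1270 genes, 752 higher and 518 lower.

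The genes whose difference at 3 h departed from the other time points (874) were 558 with library size only, 519 without a filter, 411 with voom, 287 at an adjusted p under 0.01 and 46 to 1488 with a library left out. Those called in the mean of the other time points (3308) were 1358 at an adjusted p under 0.01, and those that differed over the day in control stayed within 1.5 times of 13664.

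The share of higher genes that were also higher at dawn (74.4%) was 70.9% for the genes called without WNT replicate 4, and their share in the mean of the other time points (57.8%) was 65.8% with library size only and 65.1% without that library. For the lower genes the share at dawn (83.2%) was 89.7% at an adjusted p under 0.01 and 88.6% without it, and the share in the mean (84.0%) was 89.2%, 91.2% and, with library size only, 77.2%. The share of higher genes highest at 7 h in control (39.6%) was 31.9% over all 8 time points, 35.9% in WNT leaves and 35.9% with library size only. The share of lower genes lowest at 7 h (37.2%) was 32.4% over all 8 time points and 33.3% without WNT replicate 4, and the share highest at dawn (27.8%) was 23.4%, 18.6% in WNT leaves and 18.2% with library size only. The 4 named genes kept their direction throughout and did not pass with the 8 libraries alone (adjusted p from 0.0615 to 0.156), nor did MH05t0326000 with voom.

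Depth limited genes under 5 CPM most. A count of 0 allows a level of up to 0.0820 CPM in the deepest library of 3 h and 1.02 CPM in the shallowest. These limits use library sizes before TMM scaling. With the TMM factors of 0.737 and 0.857 of these libraries they lie higher on the scale of the levels given.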
